A study of Mus musculus with 2 samples.

Results

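The genes described here are 6 CC chemokines, Ccl2, Ccl7, Ccl12, Ccl8, Ccl6 and Ccl9, and Ccr2, the receptor through which the first 3 draw monocytes into tissue. They were taken by their symbols, which stand on 7 of the 32285 gene rows of the count matrices, and all 7 were detected in both libraries. The matrices hold single-cell RNA counts of CD45+ leukocytes, sorted from dissociated tumours of C57BL/6 mice and captured with a droplet 5′ kit. There was 1 library per genotype, labelled WT and Ythdf2 KO; YTHDF2 is a protein that binds m6A-modified RNA. The labels place the knockout in the tumours, while the design text speaks of cKO mice, and neither names the tumour, the age of the animals or how many were pooled. With 1 library per genotype no difference between them has a replicate check, so no p-value is given; intervals are 95% intervals of counting error only, and cells are not replicates.

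Chemokines are small secreted proteins that guide cells along concentration gradients through G protein-coupled receptors. Ccl2, Ccl7 and Ccl12 bind Ccr2 and call classical monocytes from bone marrow and blood into inflamed tissue and tumours, where the monocytes mature into macrophages that express the complement subunits C1qa, C1qb and C1qc and lose Ccr2. Ccl8 belongs to the same group by sequence, but in the mouse it is best known as a ligand of Ccr8. Ccl6 and Ccl9 have no human counterpart of the same name and act mainly through Ccr1, a receptor of monocytes and neutrophils.

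The 6 ligand genes lie in 2 groups on chromosome 11 (mm10, GENCODE vM21 annotation). Ccl2 (82035571 to 82037453), Ccl7 (82045712 to 82047525), Ccl12 (82101845 to 82103400) and Ccl8 (82115185 to 82116799) lie on the plus strand, with gaps of 8.26, 54.3 and 11.8 kb. Ccl9 (83572919 to 83578636) and Ccl6 (83587882 to 83593087) lie 1456 kb further on, on the minus strand and 9.25 kb apart. Ccr2 lies on chromosome 9 (124101950 to 124113557, plus strand). Ccl2, Ccl7, Ccl12, Ccl8 and Ccl6 share no stretch of 60 bases with a transcript of any other gene; 1.04% of such stretches in Ccl9 and 1.51% in Ccr2 also occur elsewhere. Gm17268 overlaps Ccl2, and E230016K23Rik overlaps Ccl6; how the counting treated reads of overlapping genes is not given in the sources used here.

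RefSeq's promoter table (GRCm38.p6) holds 5 of the 7 genes; Ccl2 and Ccl7 have no entry. The 250 bases before the start of 4 ligand genes are shown, 5′ to 3′ on each gene's strand, because Ccl12 with Ccl8, and Ccl6 with Ccl9, tended to be found in the same cells. Capitals mark matches to a motif on either strand.
Ccl12: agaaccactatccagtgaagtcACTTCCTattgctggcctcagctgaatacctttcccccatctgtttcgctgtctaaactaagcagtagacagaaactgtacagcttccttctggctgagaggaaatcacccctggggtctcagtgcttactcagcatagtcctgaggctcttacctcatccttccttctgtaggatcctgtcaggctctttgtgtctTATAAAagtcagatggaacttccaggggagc
Ccl8: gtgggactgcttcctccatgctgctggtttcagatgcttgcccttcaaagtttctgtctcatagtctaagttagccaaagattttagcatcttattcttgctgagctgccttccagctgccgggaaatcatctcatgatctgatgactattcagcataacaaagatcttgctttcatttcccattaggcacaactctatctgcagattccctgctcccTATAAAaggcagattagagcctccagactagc
Ccl6: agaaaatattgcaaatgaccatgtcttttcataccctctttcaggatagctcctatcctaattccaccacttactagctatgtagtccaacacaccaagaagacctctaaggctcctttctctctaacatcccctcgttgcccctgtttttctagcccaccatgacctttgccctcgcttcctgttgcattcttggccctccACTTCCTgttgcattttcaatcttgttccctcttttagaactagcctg
Ccl9: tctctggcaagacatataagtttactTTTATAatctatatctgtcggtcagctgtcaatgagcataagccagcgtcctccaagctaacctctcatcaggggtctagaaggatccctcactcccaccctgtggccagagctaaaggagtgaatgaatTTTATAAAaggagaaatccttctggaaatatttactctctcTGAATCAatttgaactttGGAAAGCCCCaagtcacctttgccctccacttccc
They are chr11:82101595-82101844, chr11:82114935-82115184, chr11:83593088-83593337 and chr11:83578637-83578886, the first pair on the plus and the second on the minus strand. TATAAA stood 31 bases before the start in Ccl12, 32 in Ccl8 and 92 in Ccl9, where matches on the 2 strands overlap, with a further reverse match 224 bases before it; 12.4% of 32851 promoters of this length hold it. AGGAAGT, an ETS core, occurred on the reverse strand in Ccl12 and Ccl6 (7.69% of all promoters). Ccl9 alone of the 4 held a match, TGAATCA, to TGANTCA, an AP-1-like pattern that allows any middle base (6.75%). It alone also held a match to the NF-kB consensus (7.25%). The C/EBP motif TTGCNNAA (9.56%), the STAT motif TTCNNNGAA (7.02%) and the interferon-stimulated response element (2.98%) did not occur in these windows.

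The WT library held 20886 barcodes and 168912853 UMIs (unique molecules), and the library labelled Ythdf2 KO 16312 barcodes and 134066610 UMIs; 101 barcode sequences were in both. After filters, 13495 and 10358 barcodes carried markers of 1 cell lineage and were gated by their marker UMIs, while 28.8% and 29.1% of kept barcodes carried markers of more than 1 lineage and were set aside. Monocytes and macrophages, defined by markers that include Csf1r, Adgre1, Fcgr1, Ms4a6c and Ms4a7, were the main group with 9319 and 6969 cells (median 4502 and 5052 UMIs). By C1q, classical (Ly6c2, Vcan, Chil3) and patrolling (Ace, Adgre4, Treml4) markers they were divided into classical monocytes (4347 and 3211 cells), intermediate cells with C1q and classical markers (2686 and 1664), C1q macrophages without classical markers (1215 and 873), patrolling monocytes (219 and 595) and others (852 and 626). These are ranges of marker counts, and 6.13% and 5.87% of the cells lay near the C1q limit, with 3 to 6 C1q UMIs. Ythdf2 itself stood at 48.4 CPM (its UMIs in every 1000000 UMIs of the cells counted) in WT and 46.1 in the library labelled Ythdf2 KO, a ratio of 0.952 (0.920 to 0.984), so the leukocytes of that library carried the transcript; a 5′ count cannot tell whether it is intact, and the genotype is written below as the label gives it.

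The Ccr2 ligands were transcripts of monocytes and macrophages. Ccl2, the main monocyte attractant, stood at 2445 CPM (2430 to 2459) in WT and 2737 (2721 to 2754) in the library labelled Ythdf2 KO. In NK cells it stood at 23.1 and 20.5, in T cells at 29.8 and 31.3, and in B cells at 31.2 and 58.1 CPM. C1q, a macrophage product, stood at 32.9 and 32.0 CPM in NK cells against 3422 and 2938 in monocytes and macrophages, so the lymphocyte values of Ccl2 are read as background; their source was not tested. With every cell thinned to 1000 UMIs (174 and 108 shallower cells left out), 67.4% and 66.4% of monocytes and macrophages had a Ccl2 UMI, against 2.75% and 2.71% of NK cells (median 9385 and 7964 UMIs); unthinned, the shares were 85.5% and 84.2%, and 20.4% and 17.7%.

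Ccl2 was present in all 5 subgroups of monocytes and macrophages, with patrolling monocytes the lowest. In WT it was highest in intermediate cells (2753 CPM), then classical monocytes (2453), other cells (2323), C1q macrophages (1873) and patrolling monocytes (1055). In the library labelled Ythdf2 KO the order was intermediate cells (3324), other cells (2935), C1q macrophages (2806), classical monocytes (2669) and patrolling monocytes (1111). No neighbouring intervals overlapped in either order, but C1q macrophages stood below classical monocytes in one library and above them in the other. Neutrophils followed at 123 and 137. C1q stood at 136 and 129 CPM in them, and how far their Ccl2 is background was not tested. Among mature dendritic cells, B, T, plasmacytoid dendritic and NK cells the neighbouring intervals overlapped.

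Ccl7 and Ccl12 were highest where C1q was present. Ccl7, a ligand of Ccr2 and of Ccr1 and Ccr3, stood in WT at 774 CPM in classical monocytes, 1582 in intermediate cells, 1633 in C1q macrophages and 301 in patrolling monocytes; the intermediate and C1q macrophage intervals overlapped. In the library labelled Ythdf2 KO these values were 842, 1959, 2599 and 285, with no overlap. Against classical monocytes, C1q macrophages were thus 2.11-fold (2.05 to 2.17) and 3.09-fold (3.01 to 3.16) higher. Ccl12, a mouse ligand of Ccr2, stood at 480, 1106, 1028 and 175 CPM in the same 4 subgroups of WT and at 593, 1301, 1292 and 201 in the other library. Its C1q macrophages were 2.14-fold and 2.18-fold above classical monocytes, and intermediate cells lay level with them in the library labelled Ythdf2 KO. Outside monocytes and macrophages neither gene passed 77.7 CPM, the Ccl7 level of neutrophils in the library labelled Ythdf2 KO, in a gate of at least 50 cells.

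Ccl8 was the ligand most tied to C1q. Its level was 106 CPM in classical monocytes, 793 in intermediate cells and 1304 in C1q macrophages of WT, and 68.3, 638 and 1880 in the library labelled Ythdf2 KO. C1q macrophages were 12.3-fold (11.7 to 12.9) and 27.5-fold (25.9 to 29.3) above classical monocytes. The 10 highest cells held 34.6% and 34.9% of the Ccl8 UMIs of C1q macrophages, and these intervals leave out that spread between cells. Patrolling monocytes stood at 303 in WT and 25.1 in the other library, but 361 of the 425 WT UMIs came from 1 cell. Neutrophils held 73.5 and 37.8, and the lymphocytes 7.71 to 34.9 CPM.

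Ccl6 and Ccl9 had other distributions. Ccl6, a Ccr1 ligand, was highest in neutrophils, at 1474 CPM (1408 to 1542) in WT and 1273 (1223 to 1324) in the library labelled Ythdf2 KO. Monocyte and macrophage subgroups followed with 659 to 761 in WT and 603 to 1198 in the other library, where the C1q macrophage interval overlapped that of neutrophils. At 1000 UMIs per cell, 58.1% and 53.8% of neutrophils had a Ccl6 UMI, against 34.7% and 37.6% of monocytes and macrophages and 1.30% and 0.842% of NK cells. Ccl9, a further Ccr1 ligand and a neighbour of Ccl6, was low in neutrophils, at 44.3 and 67.9 CPM, and stood between 450 and 813 across the 5 monocyte and macrophage subgroups of both libraries. Its WT maximum was in classical monocytes (748), and in the library labelled Ythdf2 KO C1q macrophages (813), other cells (802) and classical monocytes (776) were neighbours whose successive intervals overlapped.

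Ccr2, the receptor, had the opposite order and reached further into the lymphocytes. In classical monocytes it stood at 430 (421 to 439) CPM in WT and 489 (479 to 500) in the library labelled Ythdf2 KO, in patrolling monocytes at 399 and 370, in intermediate cells at 286 and 344, and in C1q macrophages at 180 and 160. C1q macrophages thus held 0.418 (0.389 to 0.448) and 0.327 (0.303 to 0.354) of the classical monocyte level. The patrolling subgroup set no limit on classical markers, so cells with both kinds of marker can be in it. Their part in its Ccr2 level was not tested. Plasmacytoid dendritic cells stood at 193 and 194, NK cells at 133 and 212 and T cells at 132 and 163 CPM. These lymphocyte levels were 39.0% and 55.4% (NK) and 38.7% and 42.6% (T) of the monocyte and macrophage level, where the 6 ligands were at 0.675% to 4.43%. Mature dendritic cells held 6.67 and 5.60 CPM, and B cells 0 UMIs in WT, which at a limit of 3 UMIs allows up to 15.6 CPM, and 9.30 in the other library.

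**Figure D1:**
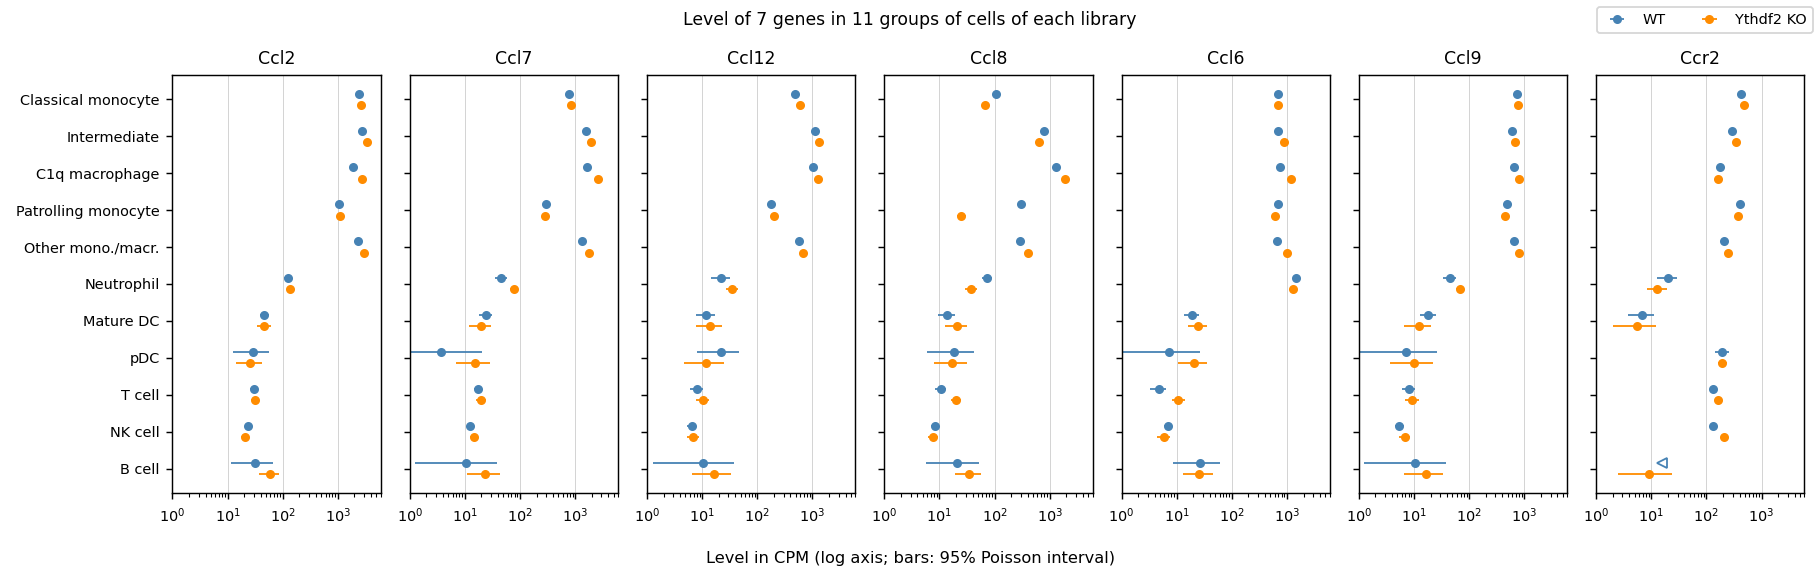
Level of each gene in CPM (log axis) in 11 groups of cells; blue points are WT, orange points the library labelled Ythdf2 KO, bars 95% Poisson intervals, and the open triangle marks the 3-UMI limit of a group with 0 UMIs. Ligands fall from the monocyte and macrophage rows at the top to the lymphocyte rows, Ccl6 peaks in neutrophils at 1474 and 1273, and Ccr2 stays above 100 in NK, T and plasmacytoid dendritic cells.

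Between the libraries, none of the 7 genes was 1.5-fold apart in monocytes and macrophages as a whole; 7.19% of the 11952 genes with at least 50 UMIs were, 1.77% higher and 5.41% lower in the library labelled Ythdf2 KO. Ccl2 had a ratio of Ythdf2 KO to WT of 1.12 (1.11 to 1.13). Ccl7 stood at 1159 and 1367 CPM, a ratio of 1.18 (1.17 to 1.19). Ccl12 stood at 749 and 848, a ratio of 1.13 (1.12 to 1.15). These 3 Ccr2 ligands were thus higher in the library labelled Ythdf2 KO by less than the 1.5-fold limit.

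The remaining genes differed as little. Ccl8 stood at 485 and 456 CPM, a ratio of 0.940 (0.922 to 0.959), and its direction was not settled: it was 1.02 as a mean over cells and 1.03 with the make-up of the gate held fixed. Ccl6 stood at 697 and 821 (ratio 1.18, 1.16 to 1.20), and Ccl9 at 677 and 722 (ratio 1.07, 1.05 to 1.08). Ccr2 stood at 341 and 383, a ratio of 1.12 (1.10 to 1.15). The median log2 ratio of the 7 genes was 0.17, and that of all genes tested -0.05.

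**Figure D2:**
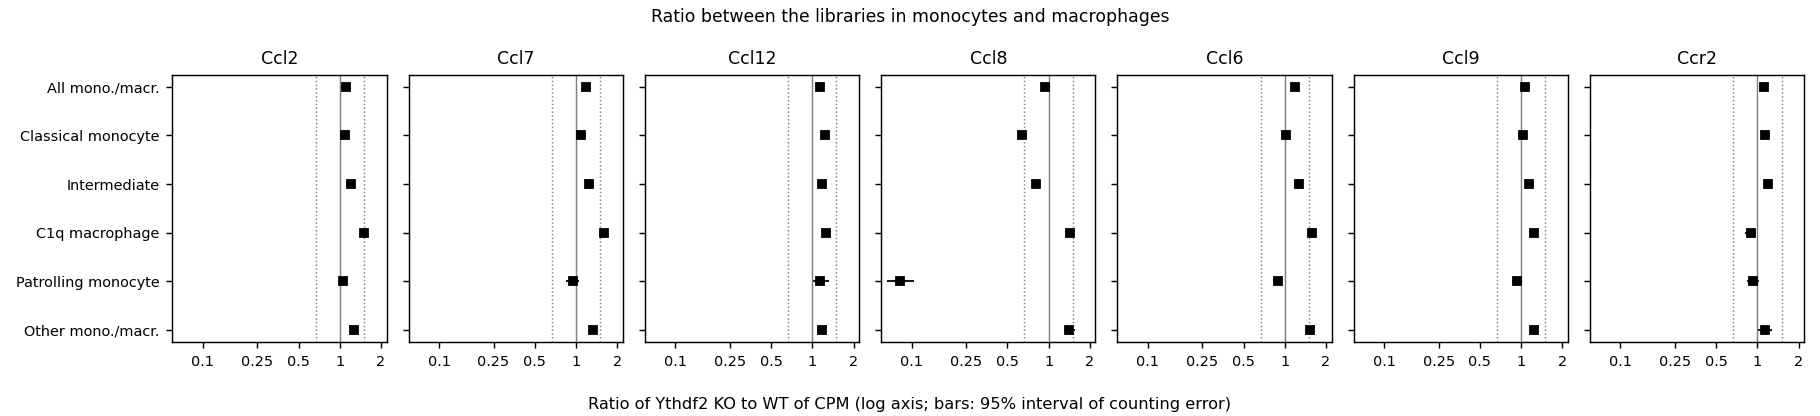
Ratio of the library labelled Ythdf2 KO to WT (log axis) for all monocytes and macrophages and their 5 subgroups; bars are 95% intervals of counting error, the solid line is 1 and dotted lines are 1.5-fold. Points of all 7 genes lie inside the dotted lines in the top row, Ccl7 (1.59) and Ccl6 (1.57) lie past them in C1q macrophages, and the Ccl8 point of patrolling monocytes (0.0830) rests on 1 WT cell.

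The ligand ratios were larger in C1q macrophages. There, 2 of the 7 genes were at least 1.5-fold higher in the library labelled Ythdf2 KO, against 2.32% of 8757 genes tested (9.09% in either direction). Ccl7 stood at 1633 and 2599 CPM, a ratio of 1.59 (1.55 to 1.64). Ccl6 stood at 761 and 1198, a ratio of 1.57 (1.51 to 1.64). Ccl2 (1873 and 2806, ratio 1.498, 1.46 to 1.54) lay just under the limit, and Ccl8 (1304 and 1880, ratio 1.44, 1.40 to 1.49) below it.

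Ccl12 (1028 and 1292, ratio 1.26) and Ccl9 (655 and 813, ratio 1.24) were closer to 1, and Ccr2 stood at 180 and 160 (ratio 0.890, 0.805 to 0.984). The median log2 ratio of the 7 genes was 0.53 in this subgroup, against -0.09 for all genes tested. C1q macrophages of the library labelled Ythdf2 KO were also deeper, with a median of 4443 against 3576 UMIs. With the subgroups set after thinning to 2000 UMIs per cell the ratios were 1.61 for Ccl7, 1.56 for Ccl6, 1.504 for Ccl2 and 1.28 for Ccl8, with Ccl2 then just past 1.5-fold; Ccl12 had 1.31. The part of depth in these ratios was not otherwise tested. When all cells with at least 5 C1q UMIs were counted, with or without classical markers, none of the 7 passed 1.5-fold: Ccl7 had a ratio of 1.34, Ccl6 of 1.36, Ccl2 of 1.25, Ccl8 of 1.06 and Ccr2 of 1.13.

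In intermediate cells, which carry C1q and classical markers, Ccl2 had a ratio of 1.21, Ccl7 of 1.24, Ccl12 of 1.18, Ccl6 of 1.27, Ccl9 of 1.13 and Ccr2 of 1.20. Ccl8 stood at 793 and 638 CPM there, a ratio of 0.804 (0.781 to 0.827), on the other side of 1 from C1q macrophages. Its share of cells at 1000 UMIs per cell was 16.2% (14.9 to 17.7) and 16.1% (14.3 to 17.9), with intervals that overlap widely.

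Classical monocytes had ligand ratios nearer to 1. Ccl2 (2453 and 2669, ratio 1.09), Ccl7 (774 and 842, ratio 1.09), Ccl6 (685 and 702, ratio 1.02) and Ccl9 (748 and 776, ratio 1.04) had ratios near 1, Ccl12 one of 1.23 and Ccr2 one of 1.14. Ccl8 (106 and 68.3) was past the limit at 0.645 (0.600 to 0.692), where 4.3% of 10321 genes were as much lower. It came to 0.822 with barcodes of more than 1 lineage counted and 0.778 as a mean over cells, both inside 1.5-fold. In the other monocyte and macrophage cells Ccl6 (659 and 999, ratio 1.52) was the 1 gene of 7 past the limit, against 2.92% of all genes that were higher. In patrolling monocytes only Ccl8 was, at 0.0830, against 4.61% of genes that were lower; without the highest Ccl8 cell of each library the ratio was 0.443, and without the 10 highest it was 1.23.

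The level of each gene was followed over 5 classes of C1q in monocytes and macrophages at 1000 UMIs per cell, from cells with no C1q UMI (4844 and 4013 cells) to cells with 11 or more (1105 and 664). In WT, Ccl8 went from 154 to 1662 CPM, a ratio of 10.8 (9.88 to 11.7), Ccl12 from 521 to 1423 (2.73) and Ccl7 from 915 to 1709 (1.87). In the library labelled Ythdf2 KO, Ccl8 went from 126 to 2107 (16.7), Ccl12 from 605 to 1673 (2.76) and Ccl7 from 923 to 2556 (2.77). Ccr2 went the other way, from 368 to 201 (0.546) and from 423 to 259 (0.612). Ccl9 was also lower in the top class, 679 to 516 (0.759) and 698 to 535 (0.765). Ccl2 had a ratio of 0.880 in WT and 1.21 in the other library, so its directions were opposite. Ccl6 had 0.929 (0.853 to 1.01), an interval that includes 1, and 1.14 (1.04 to 1.26).

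The difference between the libraries widened along the same classes for Ccl2 and Ccl7. For Ccl2 the ratio of Ythdf2 KO to WT was 1.03 (1.00 to 1.05) in cells without C1q, 1.19 at 1 to 2 C1q UMIs, 1.33 at 3 to 5, 1.39 at 6 to 10 and 1.41 (1.33 to 1.49) at 11 or more. For Ccl7 it was 1.01 (0.965 to 1.05), 1.15, 1.29, 1.49 and 1.496 (1.40 to 1.60). The intervals of the lowest and the highest class did not overlap for either gene, though both describe the same pair of libraries. Ccl6 and Ccl9 were furthest apart at 6 to 10 C1q UMIs (1.58 and 1.39) and closer in the top class (1.32 and 1.04). Ccl8 had ratios of 0.818, 0.995 and 0.848 in the lower 3 classes and 1.42 and 1.27 in the upper pair, and Ccr2 ratios of 1.01 to 1.29 had no order.

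**Figure D3:**
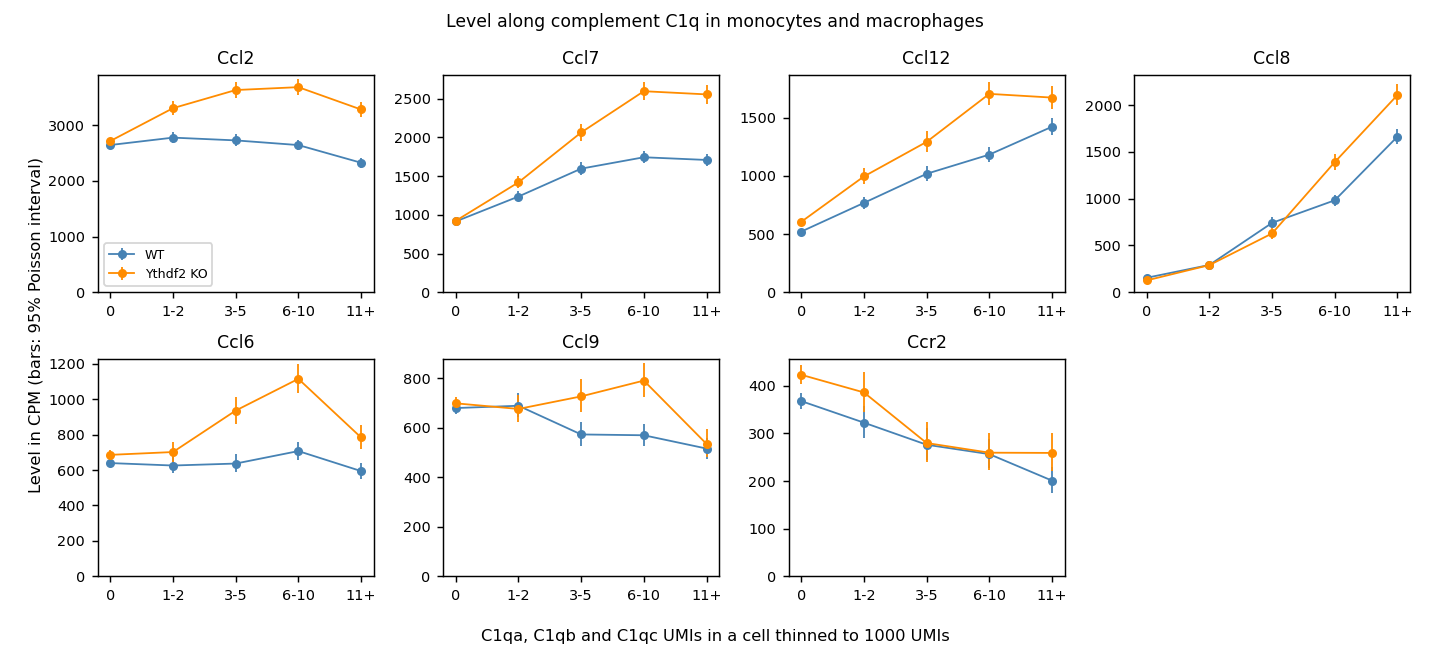
Level of each gene in CPM in monocytes and macrophages thinned to 1000 UMIs, by the number of C1qa, C1qb and C1qc UMIs in the cell; points are sums over the cells of a class, bars 95% Poisson intervals, blue WT and orange the library labelled Ythdf2 KO. Ccl7, Ccl12 and Ccl8 climb to the right in both libraries and Ccr2 declines, while the 2 lines of Ccl2 and Ccl7 start together (ratios of 1.03 and 1.01) and part.

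The genes differed in how many cells held them. For Ccl2, the 10% of monocytes and macrophages with most UMIs held 40.1% of its UMIs in WT and 40.6% in the library labelled Ythdf2 KO. Ccl9 (41.3% and 43.1%) and Ccr2 (42.4% and 39.6%) were as evenly spread, Ccl6 (51.6% and 52.4%), Ccl7 (56.3% and 58.1%) and Ccl12 (64.7% and 63.6%) less so. Ccl8 was carried by few cells: the top 10% held 95.9% and 96.0%, and the top 1% held 47.6% and 46.6%. Its highest cell had 619 UMIs in WT and 1074 in the other library. Cells with at least 10 Ccl8 UMIs numbered 449 (4.82%) and 379 (5.44%) and held 86.5% and 87.8% of its UMIs.

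In C1q macrophages, 117 of 1215 WT cells (9.63%) and 149 of 873 cells of the library labelled Ythdf2 KO (17.1%) had at least 10 Ccl8 UMIs. At 1000 UMIs per cell, 20.9% (18.6 to 23.3) and 29.1% (26.1 to 32.3) of C1q macrophages had a Ccl8 UMI, so the share of cells with the transcript differed as well as the summed level. Ccl7 was likewise found in 51.8% (48.9 to 54.7) and 61.9% (58.6 to 65.2) of them, and Ccl6 in 31.9% (29.3 to 34.7) and 40.1% (36.8 to 43.4). Ccr2 was found in 14.1% and 14.6%, with intervals that overlap widely. At least 3 of the 6 ligands were found in 44.1% of these cells in WT and 58.9% in the other library, against 33.0% and 33.4% of classical monocytes.

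**Figure D4:**
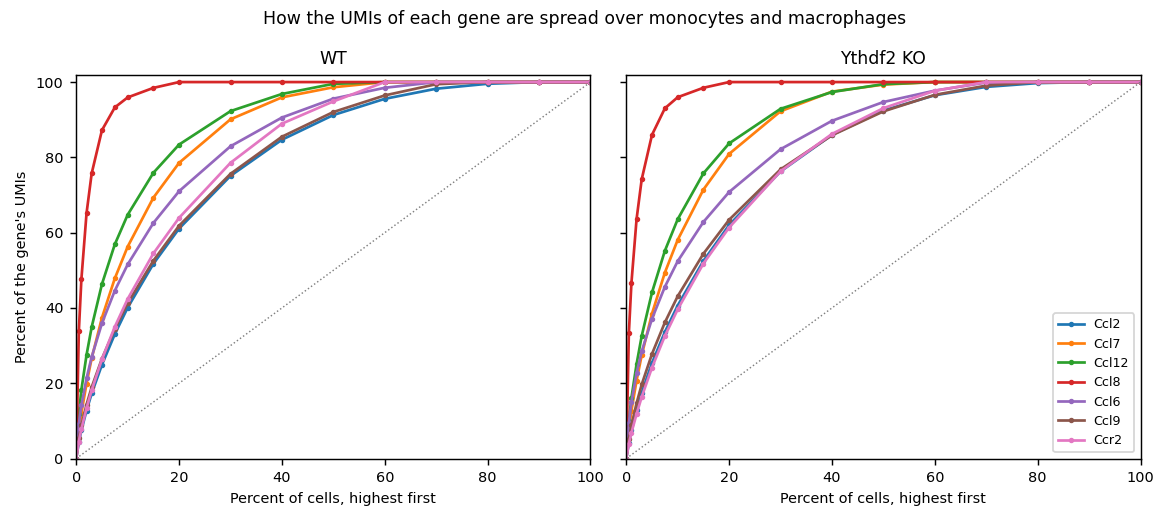
Percent of each gene's UMIs held by a given percent of monocytes and macrophages, cells with most UMIs first, for WT (left) and the library labelled Ythdf2 KO (right); the dotted line is an even spread. The Ccl8 curve reaches 95.9% and 96.0% at 10% of cells, where Ccl2 is at 40.1% and 40.6%.

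Over all monocytes and macrophages, the ligands were found in the same cells in 2 sets. At 1000 UMIs per cell, 49.4% of WT monocytes and macrophages with a Ccl2 UMI had a Ccl7 UMI, against 19.0% of those without, a share ratio of 2.60; in the library labelled Ythdf2 KO the shares were 50.1% and 15.3%, a ratio of 3.28. Cells with Ccl7 had Ccl12 2.65 and 2.99 times and Ccl8 2.65 and 2.93 times as often as cells without it. The second set was Ccl6 with Ccl9: cells with Ccl6 had Ccl9 in 51.3% and 49.9%, against 32.6% and 33.1% of the others (ratios 1.58 and 1.505). Across the sets ratios were 0.960 to 1.30. Ccl2 with Ccl8 was the weakest pair of the first set, with ratios of 1.09 to 1.70 that reach into that range. In C1q macrophages alone, cells with Ccl2 had Ccl8 1.02 and 1.06 times as often, but cells with Ccl6 had it 1.30 and 1.42 times. Cells with Ccl7 had Ccl8 1.559 and 1.503 times as often there, and cells with Ccl12 1.699 and 1.33 times. For cells with Ccl9 the ratios were 1.48 and 1.18. Ccl8 thus still went with Ccl7 and Ccl12 of its set, but hardly with Ccl2, and it also went with Ccl6 and Ccl9. Ccl7 with Ccl12 (2.05 and 2.01) and Ccl6 with Ccl9 (1.94 and 2.04) kept to the sets. In classical monocytes Ccl2 with Ccl8 had 2.11 and 2.34. Over the whole gate, the sets are those of the 2 gene groups on chromosome 11 given above.

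Over the whole gate, cells with Ccr2 had Ccl8 less often (share ratios 0.665 and 0.691), and Ccl7 (0.803 and 0.816) and Ccl12 (0.815 and 0.853) as well, while Ccl2 was near even (0.981 and 0.964). In C1q macrophages alone the share ratios were 0.510 and 0.807 for Ccl8, 0.868 and 1.10 for Ccl7, 0.927 and 1.36 for Ccl12, and 0.918 and 1.18 for Ccl2. The library labelled Ythdf2 KO thus had the other direction there for Ccl7 and Ccl12, with 124 Ccr2-positive cells. Receptor and ligand still met in many cells of the whole gate, as Ccl2 was common with or without Ccr2. In the library labelled Ythdf2 KO, 64.6% of Ccr2-positive and 67.0% of Ccr2-negative cells had a Ccl2 UMI. The WT shares were 66.4% and 67.7%. The cells of a library share their capture and depth, so these shares are a description, and how far free RNA or 2 cells in 1 droplet enter them was not tested.

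**Figure D5:**
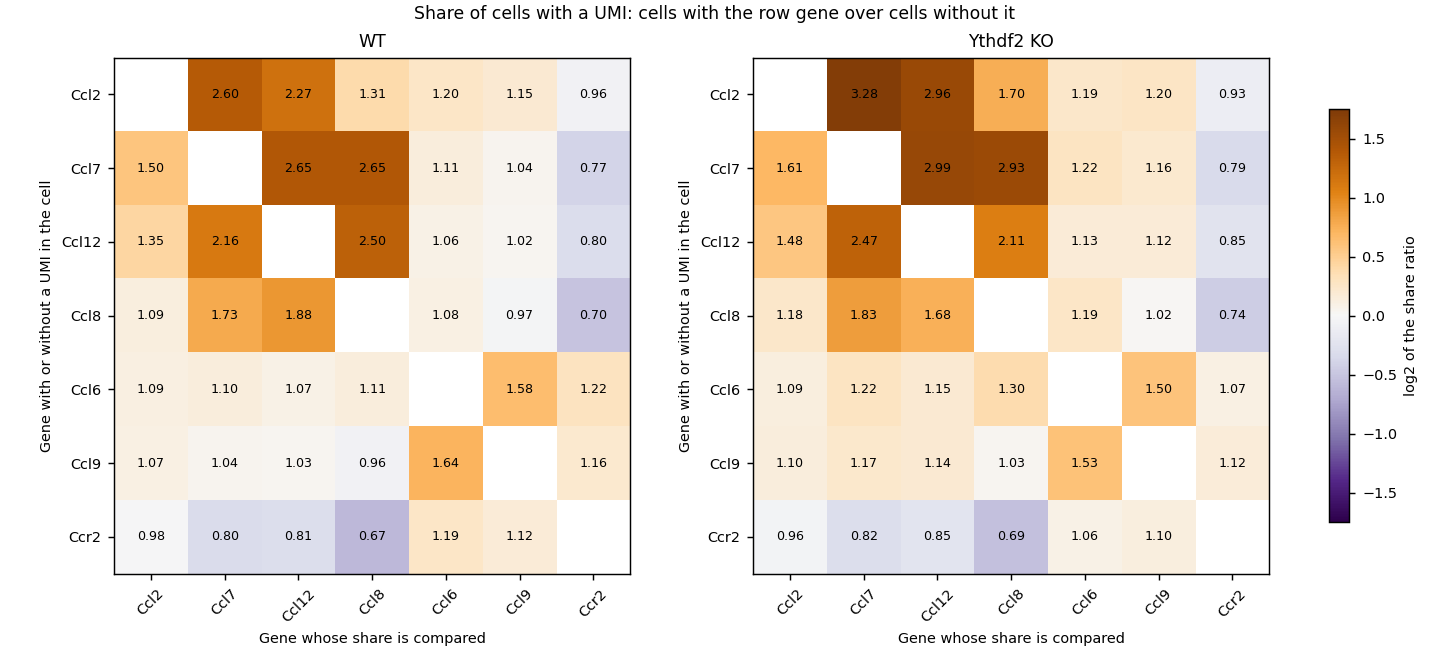
For each row gene, the share of monocytes and macrophages with a UMI of the column gene in cells with the row gene over that in cells without it, at 1000 UMIs per cell, for WT (left) and the library labelled Ythdf2 KO (right); colour is the log2 of the printed ratio. Ccl2, Ccl7, Ccl12 and Ccl8 form one block (up to 2.65 and 3.28), paler where Ccl2 meets Ccl8 (1.09 to 1.70). Ccl6 and Ccl9 form a second (1.505 to 1.64), and Ccr2 is below 1 with Ccl7, Ccl12 and Ccl8.

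Genes whose level was most raised in cells with each member, ranked by the smaller ratio of the 2 libraries, differed between the members. In cells with Ccl7, the leaders after Ccl12 were Pf4, the platelet factor 4 chemokine (1359 against 434 CPM in WT and 2611 against 571 in the library labelled Ythdf2 KO), Ccl8 and Ch25h, the cholesterol 25-hydroxylase (42.4 against 14.3, and 63.4 against 11.8). Ch25h and the transcription factor gene Pou3f1 were among the 8 leaders of Ccl2, Ccl7 and Ccl12 alike. Cells with Ccl8 were led by Folr2, the folate receptor beta of tissue macrophages (181 against 48.7, ratio 3.71, and 274 against 42.7, ratio 6.43), Timp2, Pf4, Hpgds, Fabp5, Syngr1, Mrc1, the mannose receptor, and Il18bp. The ratio of Mrc1 was 2.61 and 4.002.

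Cells with Ccl6 or Ccl9 shared Retnla, Pf4, Cxcl3, a neutrophil attractant, and Pdpn among their 8 leaders, and each had the other. Retnla led both, but 10 cells held 99.6% of its UMIs in WT and 96.8% in the other library, so it rests on few cells. Arg1, the arginase of alternatively activated macrophages, stood at 486 against 289 CPM in Ccl9-positive and Ccl9-negative WT cells and at 273 against 79.9 in the library labelled Ythdf2 KO. Cells with Ccr2 were marked by Fn1, fibronectin (439 against 240, and 272 against 144), Grk6, Vcan, Hp, Ero1lb, F13a1 and Lrg1. Vcan was a marker of the classical monocyte subgroup. Members' own leaders were ranked among 2050 to 6460 genes, and they say nothing of shared control.

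Few of the other genes of the network were 1.5-fold apart between the libraries in monocytes and macrophages as a whole, where 1.77% of all genes were higher and 5.41% lower. Of 11 other CC ligands, 6 had at least 50 UMIs, none was 1.5-fold higher and 1 lower: Ccl22, a ligand of Ccr4, at 1.58 and 0.890 CPM (ratio 0.564, 0.366 to 0.855). The 3 highest of the list were Ccl4 (2217 and 2699, ratio 1.22), Ccl5 (483 and 439, ratio 0.909) and Ccl3 (450 and 552, ratio 1.23). In C1q macrophages, where 9.09% of all genes were 1.5-fold apart, 5 of these ligands were measured: Ccl3 was higher (360 and 598, ratio 1.66, 1.56 to 1.77), as far as Ccl7 and Ccl6 were, Ccl24 was lower (21.2 and 13.5, ratio 0.636), and the list's median log2 ratio was 0.26. Of 14 receptors, 6 were measured, none was 1.5-fold higher and 1 lower, the scavenger receptor gene Ackr3 at 0.908 and 0.432 (ratio 0.476, from 42 and 17 UMIs). Ccr1, the receptor of Ccl6 and Ccl9, stood at 362 and 347 CPM (ratio 0.958) and Ccrl2, an atypical receptor, at 272 and 313 (1.15).

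All 10 genes that carry the signal of Ccr2 were measured and none was 1.5-fold apart, with Gnai2 (960 and 1022), the inhibitory G protein subunit, Gnb1 (256 and 253) and Rac2 (247 and 267) the highest. Of 13 regulators of Ccl2 transcription, 1 was higher, against 1.77% of all genes: Il1b, the interleukin 1 beta gene, at 1155 and 1930 CPM, a ratio of 1.67 (1.65 to 1.69). The other 12 lay inside 1.5-fold, among them Fos (4129 and 4118), Jun (1877 and 1753) and Cebpb (1534 and 1592), which code for factors that bind the promoters of many inflammatory genes. The list medians on the log2 scale were 0.07 for ligands, 0.05 for receptors, -0.06 for signalling and -0.02 for regulators. In C1q macrophages none of the 13 regulators was 1.5-fold apart, against 9.09% of all genes, and 2 of them had a ratio above 1. Il1b stood there at 710 and 867 CPM (ratio 1.22), and the regulators' median log2 ratio was -0.19.

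Ccr2 in NK cells was past the limit. It stood at 133 CPM (128 to 138; 2724 UMIs) in WT and 212 (203 to 221; 2147 UMIs) in the library labelled Ythdf2 KO, a ratio of 1.60 (1.51 to 1.69), where 1.43% of 10257 genes were as much higher. At 1000 UMIs per cell, 14.3% (12.8 to 16.0) and 19.5% (17.1 to 22.0) of NK cells had a Ccr2 UMI; unthinned, 59.7% and 68.9% did. In mature dendritic cells, which hold little Ccr2, the thinned shares were 0.466% and 0.905% (median 4751 and 4399 UMIs), and in B cells 0 of 75 and 0 of 203 cells had one, with upper limits of the exact interval of 4.80% and 1.80%. The ratio ranged from 1.52 to 1.67 over 9 other settings. Of the 5 other CC ligands measured in NK cells, 3 were also 1.5-fold higher, and by more than Ccr2: Ccl3 (56.0 and 135 CPM, ratio 2.42), Ccl5 (589 and 1334, ratio 2.27) and Ccl4 (383 and 719, ratio 1.88), with a list median log2 ratio of 0.91.

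T cells stood at 132 and 163 CPM of Ccr2, a ratio of 1.24 (1.13 to 1.36), with thinned shares of 14.2% and 13.7%. The T cell gate also held NK markers, at 761 and 703 CPM against 1121 and 1184 in the NK gate. In turn, the NK gate held T markers at 721 and 833 CPM, against 2305 and 3155 in the T cell gate. The gates of T and NK cells are thus not cleanly separate, and the part of NK-like cells in the T cell values was not tested. Plasmacytoid dendritic cells stood at 193 and 194 (ratio 1.00, 0.718 to 1.42). Whether the ratio of NK cells differs from those of T cells or monocytes was not tested, since 1 library per genotype gives no error between animals. In neutrophils the Ccl6 ratio was 0.864 (0.813 to 0.918), inside 1.5-fold, while Ccl7, Ccl12 and Ccl9 were 1.5-fold higher (6.31% of 3851 genes were) and Ccl8 and Ccr2 as much lower (5.76% were), at levels of 13.0 to 77.7 CPM. The intervals of the neutrophil ratios of Ccl12 (0.995 to 2.53) and Ccr2 (0.361 to 1.19) included 1. C1q, a macrophage product, stood at 136 and 129 CPM in neutrophils, and the part of background in these low levels was not tested. Of the 7 genes in T cells, Ccl8 and Ccl6 were 1.5-fold higher (2.18% of 9203 genes were), at levels of at most 20.2 CPM.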

How the data were processed

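The 2 libraries of CD45+ tumour leukocytes were analysed. The deposited files are raw UMI counts per gene and barcode, made by the authors with Cell Ranger against mm10 and, per the submitters' processing notes, version 5.0.1, while the file headers name 6.1.1; Seurat 4.0.4 is also named there, with no step given. A barcode was kept if it had 200 genes or more, 500 UMIs or more and no more than 10% of UMIs from mitochondrial genes. A lineage was called at 3 UMIs from at least 2 of its markers. Barcodes with more than 2 marker UMIs of a second lineage were set aside, and no doublet caller was used. T and NK cells counted as 1 lineage in this step, so barcodes with markers of both were kept. They were called T cells if T was called and a Cd3 gene had a UMI, and NK cells otherwise. C1q macrophages had at least 5 C1q UMIs and under 3 of classical markers. Patrolling monocytes had under 5 C1q UMIs and at least 2 of patrolling markers, with no limit on classical markers. UMIs were summed per gate and divided by the gate's total, so values depend on its other genes. Intervals are exact Poisson (levels), Clopper-Pearson (shares) and conditional binomial (ratios); a gene counted as apart at 1.5-fold. The ratio script was tested on simulated data. Named genes were the 7 members, list genes at least 1.5-fold apart or among the 3 highest of their list, and the 8 leading genes per member with at least 50 thinned UMIs in cells with the member in each library. Members, markers and lists were chosen with earlier results of these data known. Ccl19, on 2 rows, was left out of its list. Some genes that meet these rules are not reported here. Python 3.11.15, NumPy 2.4.6, SciPy 1.17.1 and, for Scrublet as an alternative, Scanpy 1.11.5 were used. Alternatives changed the gates, filters, scale and cells counted.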

Additional observations from a re-analysis of the deposited data

Results flagged for a closer look

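Ratios of Ythdf2 KO to WT lay on opposite sides of 1 in different cell groups for 3 of the genes, with intervals of counting error that do not reach 1; with 1 library per genotype the difference between the groups was not tested. For Ccr2 the ratio was 1.60 in NK cells (133 and 212 CPM) and 0.890 in C1q macrophages (180 and 160), where it became 1.02 as a mean over cells and 1.13 with all cells of at least 5 C1q UMIs. For Ccl8 it was 1.91 in T cells (81 and 105 UMIs) and 0.0830 in patrolling monocytes (425 and 101 UMIs). The T cell value is at 2.18% and 4.43% of the monocyte and macrophage level, with 21 of the 105 UMIs in 1 cell, and the patrolling value rests on 1 WT cell with 361 UMIs. Ccl8 ratios with more counts also lay on both sides of 1: 1.44 in C1q macrophages (6395 and 8225 UMIs), against 0.804 in intermediate cells (12574 and 7550 UMIs) and 0.645 in classical monocytes (2280 and 1157 UMIs). For Ccl6 it was 2.29 in T cells (36 and 56 UMIs, 0.675% and 1.31% of the monocyte and macrophage level) and 0.864 in neutrophils, the group where its level was highest (1474 and 1273 CPM).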

How the results depend on the processing

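No paired analysis was possible because each genotype has 1 library. Over 9 alternatives, Ccl2, Ccl7, Ccl12, Ccl6, Ccl9 and Ccr2 kept a ratio above 1 and under 1.5 in monocytes and macrophages; Ccl8 did not keep its direction (0.892 to 1.03). With barcodes of more than 1 lineage counted, the ratios were 1.19 for Ccl2, 1.21 for Ccl7, 1.20 for Ccl12, 0.995 for Ccl8, 1.21 for Ccl6, 1.10 for Ccl9 and 1.22 for Ccr2. Levels in CPM were then lower in both libraries: Ccl2 1834 and 2179, Ccl7 949 and 1152, Ccl12 583 and 701, Ccl8 423 and 421, Ccl6 532 and 642, Ccl9 489 and 537, Ccr2 270.3 and 328. With a second lineage set aside at 2 UMIs, Ccl2 had 1.13 and Ccl8 0.968; without mitochondrial and ribosomal protein genes, Ccl2 had 1.13. As means over cells, Ccl2 had 1.16, Ccl12 1.19, Ccl8 1.02 and Ccl6 1.20. With the make-up of the gate held fixed, Ccl2 had 1.18, Ccl7 1.26, Ccl12 1.21, Ccl8 1.03, Ccl6 1.20 and Ccl9 1.10. Without the 10 highest cells of each library, Ccl8 had 0.892 there and 1.23 instead of 0.0830 in patrolling monocytes, where it reversed. Genes 1.5-fold apart numbered 859, or 360 at a minimum of 200 UMIs, which tests fewer genes. The alternatives for single subgroups, NK cells, T cells and neutrophils were added after seeing the data. In C1q macrophages the ratios ranged over them from 1.34 to 1.66 for Ccl7, 1.36 to 1.67 for Ccl6, 1.25 to 1.57 for Ccl2, 1.06 to 1.68 for Ccl8 and 0.872 to 1.13 for Ccr2. The cause of these shifts was not tested. Groups under 200 cells, and genes near 20 CPM, are limited by their counts.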

Other observations

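Gates of fewer than 50 cells were left out of the comparisons. Conventional dendritic cells with Cd209a, Flt3 and Zbtb46 (29 cells in WT and 14 in the library labelled Ythdf2 KO) held 351 (272 to 447) and 399 (275 to 561) CPM of Ccr2. Both values lay within the range of the monocyte and macrophage subgroups. Cross-presenting dendritic cells with Xcr1 and Clec9a (21 and 16 cells) held 7 and 0 Ccr2 UMIs, so the 0 allows up to 18.9 CPM. Ccl9 stood at 239 and 327 CPM in the first of these dendritic groups and at 0 UMIs in the second in both libraries. Part of the first group's monocyte markers remained, at 1304 and 1270 CPM, and their part in these values was not tested.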
